A study of Heliconius himera and Heliconius erato lativitta and Heliconius erato petiverana with 18 samples.

Results

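Day 3 pupal wings of Heliconius butterflies were searched for gene IDs read at higher levels in the race Heliconius erato lativitta. In 14 of 14612 gene IDs (0.0958%), every lativitta library was at least 2-fold above every library of H. erato petiverana and H. himera. An ID was taken when its lowest lativitta value of 1 + plain counts per 1000000 gene reads (CPM) was at least 2 times its highest value in the other 12 libraries. All 14 IDs that met this were kept, since the limit of 150 was not reached. The IDs were chosen by their measured levels in all 18 libraries, so the gap between lativitta and the other taxa is described here and not tested. The 14 IDs are HEL_007078, HEL_014346, HEL_007160, HEL_002577, HEL_008417, HEL_004406, HEL_010106, HEL_007135, HEL_004048, HEL_012335, HEL_011421, HEL_004409, HEL_000880 and HEL_014157, in falling order of the rule's ratio.

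Heliconius wings carry warning colour patterns of red, yellow and black scales, and races of one species can look very unlike each other. Lativitta is a rayed Amazonian form of H. erato, petiverana a Central American form with a red forewing band, and himera a close relative of H. erato. In the pupal wing, cells of the epithelium become scale cells, and pigments are laid down later in pupal life. A small number of patterning genes, among them optix, WntA and cortex, are known to control much of the pattern in this genus. The deposited files pair 0 IDs with a gene name, so which genes the 14 IDs stand for was not analysed here, and neither was the presence of wing cell markers.

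Polyadenylated RNA of whole wings was sequenced from animals raised at about 27 °C, and each of the 3 taxa has forewing (FW) libraries numbered 1 to 3 and hindwing (HW) libraries with the same numbers. The labels give no separate animal for each library, so every p-value here rests on differences among libraries that may be technical repeats. Whole wings mix cell types, and fewer cells of a type cannot be told apart from less RNA per cell.

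Libraries held 4599197 to 17002996 gene reads. They fell into sets that cut across the taxa: in all 6 petiverana libraries and both himera libraries numbered 1, 0.453% to 0.715% of reads overlapped more than 1 gene (ambiguous reads), and 30.7% to 33.7% of gene reads belonged to the 10 IDs with the most. In the 6 lativitta libraries and the other 4 himera libraries the ranges were 1.40% to 1.77% and 8.62% to 12.4%. Their part in the levels below was not tested, and plain CPM is a share of all gene reads, those of the leading IDs included. Trimmed-mean (TMM) factors, which scale libraries so that the typical ID is level between them, were 1.33 to 1.63 in lativitta, 0.619 to 1.32 in himera and 0.522 to 0.740 in petiverana. Between taxa the mean log2 factor was higher in lativitta than in himera by 0.55 and than in petiverana by 1.16. Over the 9704 IDs with a mean of at least 1 plain CPM, the median ratio of lativitta to petiverana means (0.5 CPM added to each) was 2.06 in plain CPM and 0.967 after TMM scaling. A member's gap in plain CPM therefore includes a shift that the typical ID shares, and both scales are given.

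The largest gap was that of HEL_007078. In lativitta it was at 22.9, 34.2 and 34.0 plain CPM in FW 1, 2 and 3 and at 25.1, 31.5 and 31.4 in HW 1, 2 and 3. In himera it ranged from 0.117 to 3.68 plain CPM with a median of 2.28, and in petiverana from 0.159 to 1.12 with a median of 0.484. In plain CPM the number 1 library was the lowest in each wing of each taxon. The rule's ratio for HEL_007078 was 5.11 in plain CPM and 4.35 after TMM scaling, the highest of the 14 IDs on both scales. Its mean of 29.9 ± 4.71 plain CPM in lativitta (SD, n = 6) was 14.8 times the himera mean and 49.7 times the petiverana mean, and after TMM scaling 11.9 and 23.2 times. It had 1026 reads in lativitta, 119 in himera and 26 in petiverana, so the ratios to petiverana are loosely fixed.

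**Figure D1:**
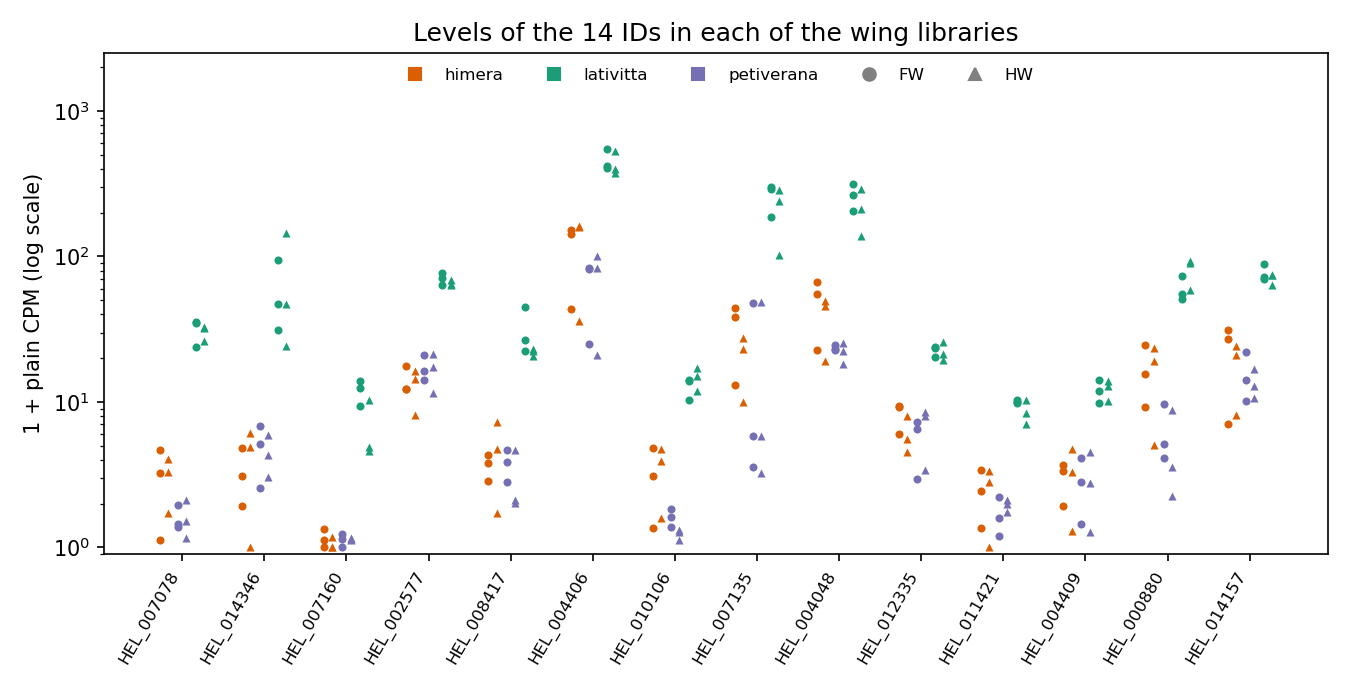
Level of each of the 14 IDs in each of the 18 libraries, as 1 + plain CPM on a log axis, with circles for FW, triangles for HW and a colour for each taxon. For HEL_007078 the 6 lativitta points sit at 22.9 to 34.2 plain CPM, above a highest value of 3.68 in the other taxa.

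HEL_007160 was nearly unread outside lativitta. It had 289 reads over the 6 lativitta libraries, against 7 over the 6 himera and 6 over the 6 petiverana libraries, and 3 himera libraries and petiverana FW 1 had 0. In lativitta it was at 8.34, 11.4 and 13.0 plain CPM in FW 1, 2 and 3 and at 3.61, 3.91 and 9.27 in HW 1, 2 and 3. The highest value elsewhere was 0.335 plain CPM, in himera FW 3, which is what 3 reads amount to in that library. The ratio of means was 78.9 to himera and 60.3 to petiverana in plain CPM, and 56.8 and 26.6 after TMM scaling. With so few reads in the other taxa these ratios are loosely fixed, and adding 5 in place of 1 to the CPM brought the rule's ratio for HEL_007160 from 3.45 to 1.61.

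HEL_014346 had the widest spread within lativitta. It was at 46.0, 94.2 and 30.1 plain CPM in FW 1, 2 and 3 and at 46.1, 23.0 and 144 in HW 1, 2 and 3. The highest 1 + CPM among the 6 lativitta libraries was 6.03 times the lowest, against 1.21 times for HEL_002577, the ID with the least spread. Himera ranged from 0 to 5.12 plain CPM and petiverana from 1.56 to 5.79, so the lowest lativitta library, HW 2, still lay above all 12 others. The rule's ratio for HEL_014346 was 3.54 in plain CPM and 2.07 after TMM scaling. HEL_002577 was nearly level within lativitta, at 62.3, 69.6 and 75.7 plain CPM in FW 1, 2 and 3 and 62.3, 63.5 and 68.3 in HW 1, 2 and 3.

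The IDs covered a wide range of levels. HEL_004406 was the most abundant, at 543, 406 and 420 plain CPM in lativitta FW 1, 2 and 3 and 531, 373 and 396 in HW 1, 2 and 3. Its mean was 445 ± 73.2 plain CPM in lativitta, 115 ± 59.4 in himera and 65.0 ± 34.1 in petiverana (SD, n = 6 each). After TMM scaling these means were 301 ± 57.1, 100 ± 31.4 and 93.2 ± 43.7 CPM. HEL_004048 followed at 236 ± 64.4 plain CPM in lativitta, against 42.0 ± 18.6 in himera and 21.8 ± 2.57 in petiverana (SD, n = 6 each). Scaled by TMM, HEL_004048 was at 157 ± 34.0, 38.0 ± 7.31 and 32.8 ± 3.59 CPM in the same order. The least abundant were HEL_007160, at a mean of 8.26 ± 3.85 plain CPM in lativitta, and HEL_011421, at 8.32 ± 1.31 (SD, n = 6 each). HEL_011421 was at 8.89, 9.01 and 9.30 plain CPM in lativitta FW 1, 2 and 3 and at 7.38, 6.09 and 9.27 in HW 1, 2 and 3, above 0 to 2.40 in himera and 0.195 to 1.22 in petiverana. Of the 14 IDs, 3 had a lativitta mean of at least 100 plain CPM, 7 lay between 20 and 100 and 4 were under 20. Summed over the 14 IDs, lativitta libraries held 954 to 1472 plain CPM, himera libraries numbered 2 and 3 held 299 to 345, himera number 1 held 93.3 and 112, and petiverana libraries held 122 to 174. Without the 2 most abundant IDs the sums were 444 to 789, 89.5 to 128, 40.4 and 47.4, and 48.3 to 87.2. The sums are in plain CPM only.

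Fewer IDs met the rule once libraries were scaled. On TMM-scaled CPM 4 of the 14 IDs met it (0.0274% of all IDs), HEL_007078 with a ratio of 4.35, HEL_007160 with 2.64, HEL_014346 with 2.07 and HEL_004048 with 2.04, and no other ID joined them. In 8 more the lowest lativitta library stayed above the highest other library at a ratio under 2, from 1.24 in HEL_012335 to 1.78 in HEL_000880 and HEL_011421. In total 12 of 14 kept lativitta above all other libraries on that scale, where 3.73% of the 9704 IDs did, a count that the choice of the IDs largely fixes. In HEL_007135 and HEL_004409 the groups overlapped after scaling, at ratios of 0.838 and 0.897.

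**Figure D2:**
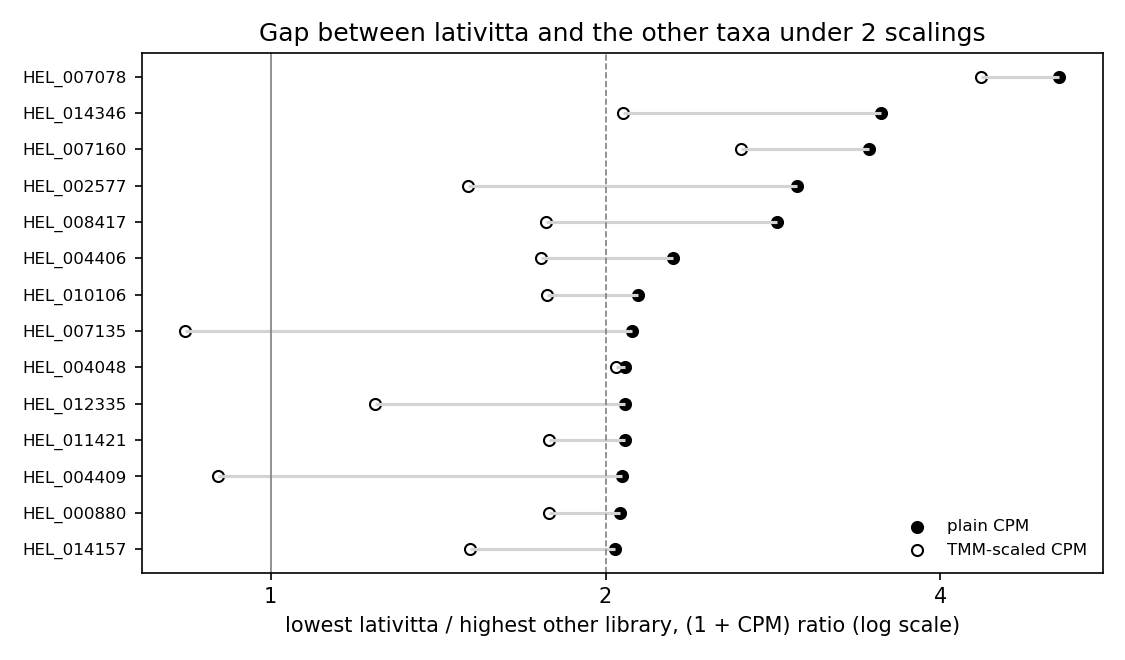
Ratio of the lowest lativitta library to the highest other library in 1 + CPM for each ID, on a log axis, with filled points for plain CPM and open points for TMM-scaled CPM. The dashed line is the rule's 2-fold limit and the solid line marks equal levels. The 4 IDs whose open points lie right of the dashed line are HEL_007078, HEL_014346, HEL_007160 and HEL_004048, and HEL_007135 and HEL_004409 fall left of the solid line.

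In both IDs the overlapping petiverana libraries were numbered 1. HEL_007135 was at 46.6 and 47.7 plain CPM in petiverana FW 1 and HW 1 and at 2.24 to 4.85 in the other 4 petiverana libraries. In lativitta it was at 299, 291 and 187 plain CPM in FW 1, 2 and 3 and 238, 102 and 287 in HW 1, 2 and 3. After TMM scaling lativitta HW 2 held 76.4 CPM of HEL_007135, below petiverana HW 1 at 91.3 and just above petiverana FW 1 at 75.9. HEL_004409 was at 3.12 and 3.50 plain CPM in petiverana FW 1 and HW 1 and at 0.280 to 1.82 in the other 4. Its lowest lativitta library, FW 3, held 8.87 plain CPM, which TMM scaling brought to 5.90, under the 6.70 of petiverana HW 1.

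After TMM scaling the ratio of lativitta to himera means ran from 2.39 in HEL_012335 to 56.8 in HEL_007160, and that to petiverana means from 1.91 in HEL_002577 to 26.6 in HEL_007160. The ID nearest above the limit in plain CPM, HEL_014157, had a rule's ratio of 2.04, with lativitta at 62.4 to 88.3 plain CPM (median 72.3), himera at 6.09 to 30.1 and petiverana at 9.09 to 21.0. HEL_000880 came next at 2.06. Just below the limit were HEL_013882 at 1.99 and HEL_004065 at 1.98. The highest library outside lativitta was a himera library in 11 of the 14 IDs and a petiverana library in 3 in plain CPM, and after TMM scaling in 4 and 10. The rule used these highest values, and the share of all IDs with this order was not counted. By means, himera was above petiverana in 77.3% of the 9704 IDs in plain CPM and in 51.1% after TMM scaling. The same rule in plain CPM took 27 IDs for petiverana (0.185%) and 1 for himera (0.00684%), and its mirror image took 10 IDs that were lowest in lativitta (0.0684%). After TMM scaling these counts were 46 (0.315%), 2 (0.0137%) and 15 (0.103%), beside the 4 IDs highest in lativitta. No pair of the 14 IDs had consecutive ID numbers, and the closest were HEL_004406 and HEL_004409, which are 3 apart.

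Himera and petiverana, which the rule treated alike, were compared with each other. The rule also capped the highest value of both taxa, which may limit how far they differ. The counts of members called between them are therefore not free of the rule. HEL_010106 was higher in himera HW than in petiverana HW. It was at 0.585, 2.94 and 3.76 plain CPM in himera HW 1, 2 and 3, from 4, 50 and 31 reads, and at 0.318, 0.128 and 0.280 in petiverana HW 1, 2 and 3, from 2, 1 and 2 reads. All 3 himera HW values lay above the 3 petiverana values. The log2 fold change of himera over petiverana was 2.50 (SE 0.61) with an edgeR quasi-likelihood adjusted p of 0.0256, adjusted over the 9957 IDs tested. The call was lost without the lativitta libraries, in a fit added after seeing the data: with only the 12 himera and petiverana libraries in the filter and the fit, HEL_010106 was still tested, at 2.49, and the edgeR adjusted p was 0.101. With only the HW libraries of these taxa it did not pass the filter on low counts. In FW it was 0.91 (SE 0.54, edgeR adjusted p = 0.311), and himera FW 1, at 0.351 plain CPM, lay below the petiverana values of 0.390, 0.848 and 0.610, while himera FW 2 and 3, at 3.82 and 2.12, lay above them. In lativitta HEL_010106 held 9.30 to 16.0 plain CPM, so its order was lativitta, himera, petiverana by mean, at 12.7 ± 2.35, 2.26 ± 1.52 and 0.429 ± 0.259 plain CPM (SD, n = 6 each).

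This was the 1 of 14 members that passed in HW, where 9.19% of all IDs did. All 14 members entered this fit with the lativitta libraries, in which they had been chosen as high. Without lativitta libraries 13 entered, all but HEL_007160, and 0 were called in either wing, against 1.08% of all IDs in FW and 1.70% in HW. There 0 members in FW and 1 in HW, HEL_010106, had an unadjusted edgeR p under 0.05. The share of all IDs with an unadjusted p under 0.05 in that fit was not counted, so these members cannot be set against it. With only the groups compared 10 entered, without HEL_007078, HEL_007160, HEL_010106 and HEL_011421, and 0 members and 0 IDs were called in either wing. In HW 3 members had an unadjusted edgeR p under 0.05, against 27.8% of all IDs. In FW 0 of 14 passed, against 7.30% of all IDs, and 1 member, HEL_002577, had an unadjusted edgeR p under 0.05, against 26.7% of all IDs. DESeq2 called 0 members in FW, against 16.4% of all IDs, and 1, HEL_010106, in HW, against 18.1%. The median log2 fold change of the 14 IDs was -0.03 in FW and -0.31 in HW, beside 0.02 and 0.01 over all IDs tested. The direction depended on the scale: himera means were above petiverana means in 11 of 14 IDs in plain CPM, where 77.3% of the 9704 IDs had the higher mean in himera, and in 5 of 14 after TMM scaling, where 51.1% did. The call for HEL_010106 was lost without himera HW 2 (edgeR adjusted p = 0.0805), himera HW 3 (0.0863), petiverana HW 2 (0.0956) or petiverana HW 3 (0.0831).

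**Figure D3:**
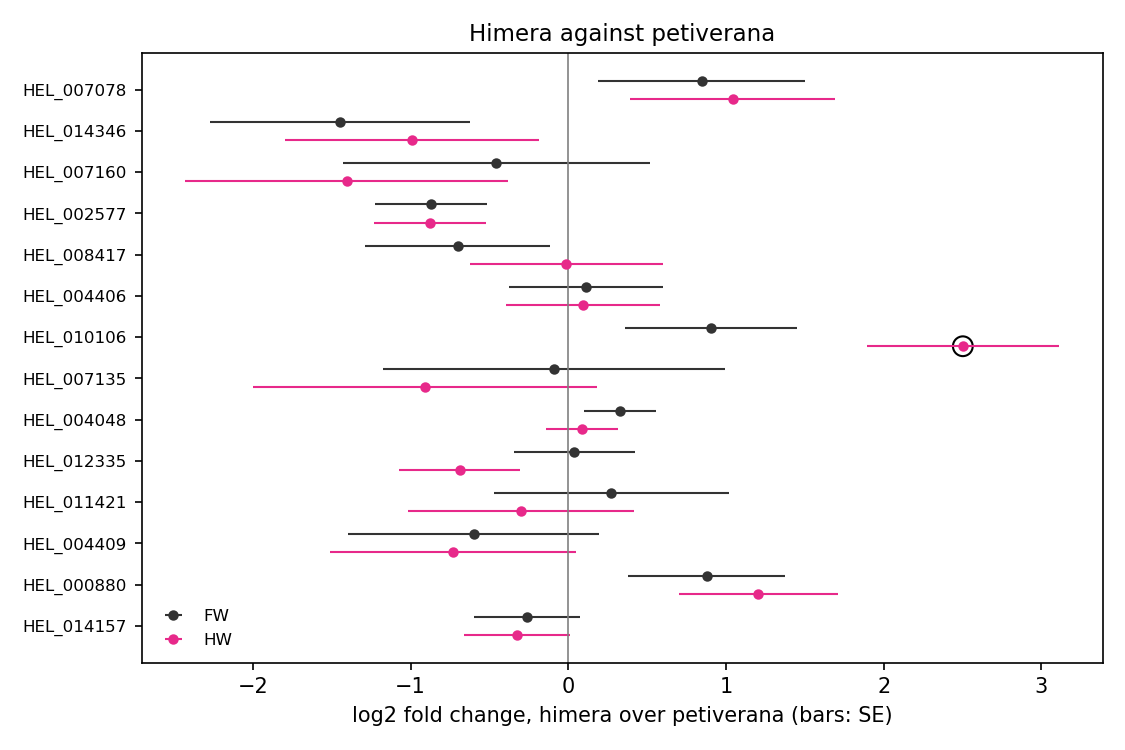
Log2 fold change of himera over petiverana for each ID in FW and HW, with bars for 1 SE of the edgeR fit. The ringed point, HEL_010106 in HW at 2.50, is the 1 that passed at an adjusted p of 0.05.

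Members did not split himera from petiverana in one way. HEL_000880 tended to higher values in himera, at 8.19, 14.6 and 23.8 plain CPM in FW 1, 2 and 3 and 4.09, 22.5 and 18.1 in HW 1, 2 and 3, against 3.12, 4.12 and 8.69 and 1.27, 2.55 and 7.84 in petiverana. The groups overlapped in both wings, and in FW the log2 fold change was 0.88 (SE 0.50, edgeR adjusted p = 0.280). The HW value was 1.21 (SE 0.50, edgeR adjusted p = 0.138). With the library number as a block, where 11.3% of all IDs passed, the HW value was 1.33 (edgeR adjusted p = 0.0417), although numbers did not pair these taxa. Without petiverana HW 3 it was 2.09 (edgeR adjusted p = 0.0423). HEL_002577 had negative values. Its FW log2 fold change was -0.87 (SE 0.36, edgeR adjusted p = 0.137), and its HW one was -0.88 (SE 0.36, edgeR adjusted p = 0.130), or -1.40 without himera HW 1 (edgeR adjusted p = 0.0129). The fits behind these values of HEL_000880 and HEL_002577 kept the lativitta libraries.

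The number 1 libraries, which stand apart in himera and petiverana, moved several of these values. Chi-square per degree of freedom between them and numbers 2 or 3 of the same taxon and wing was 748 to 1222 in himera and 615 to 765 in petiverana, against 16.6 to 37.9 and 60.5 to 64.3 between numbers 2 and 3. Both himera number 1 libraries lay below the other 4 himera libraries in 11 of 14 IDs in plain CPM, where 69.8% of the 9704 IDs showed this, and in 8 of 14 after TMM scaling, where 32.9% did. Without them 2 members passed in FW and 3 in HW, where 28.3% and 30.0% of all IDs passed. HEL_002577 was then lower in himera by -1.14 in FW (edgeR adjusted p = 0.0103) and -1.40 in HW (adjusted p = 0.0032). HEL_010106 was higher in himera by 1.28 in FW (edgeR adjusted p = 0.0299) and 2.83 in HW (adjusted p = 0.000623), and HEL_000880 by 1.51 in HW (adjusted p = 0.0424). With the lativitta libraries also left out, 1 member was called in FW, against 19.6% of IDs, and 2 in HW, against 21.2%. HEL_002577 stayed called in FW (edgeR adjusted p = 0.0489) and HW (0.0256) and HEL_010106 in HW (0.0119), but HEL_010106 in FW (0.120) and HEL_000880 in HW (0.107) did not. Without the petiverana number 1 libraries 1 member passed in FW and 3 in HW, against 12.4% and 14.0% of all IDs. HEL_007135 changed sign there, from -0.09 to 2.36 in FW (edgeR adjusted p = 0.0124) and from -0.91 to 1.84 in HW (adjusted p = 0.0281). The others called in HW were HEL_010106 and HEL_012335, the latter at -0.97 (edgeR adjusted p = 0.0469). Without the number 1 libraries of either taxon 3 members passed in FW and 5 in HW, against 41.3% and 42.2% of all IDs. The fits without petiverana number 1 libraries, alone or with those of himera, kept the lativitta libraries, in which the members had been chosen as high. They were not repeated without lativitta, so whether their calls would stay was not tested. Within the set of low ambiguous reads, which leaves 1 himera library per wing, few IDs of any kind passed, 0.233% in FW and 0.212% in HW, so the 0 of 10 members called there says little.

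**Figure D4:**
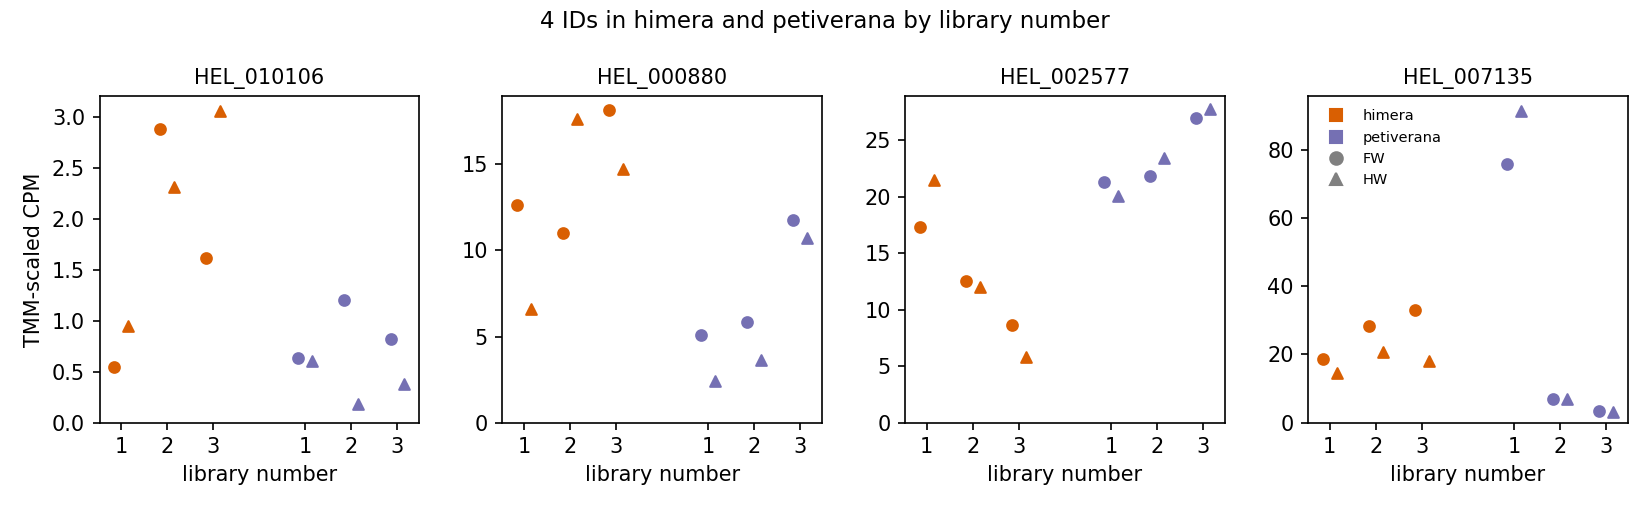
TMM-scaled CPM of 4 IDs in the himera and petiverana libraries by library number, with circles for FW and triangles for HW. HEL_007135 is at 75.9 and 91.3 in petiverana number 1 and at 3.07 to 6.90 in petiverana numbers 2 and 3, and HEL_002577 is at 17.3 and 21.5 in himera number 1 and at 5.83 to 12.5 in himera numbers 2 and 3.

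The last comparison was between the wings. In lativitta 0 of 14 members passed, against 0.0301% of all IDs, and 0 had an unadjusted edgeR p under 0.05, against 0.683%. DESeq2 also called 0 members, against 0.175% of all IDs. The rule takes the lowest of both lativitta wings, which favours IDs at like levels in both. The smallest unadjusted p was that of HEL_007160, which was lower in HW in the mean, at 5.60 ± 3.18 plain CPM against 10.9 ± 2.36 in FW (SD, n = 3 each). The wings overlapped, with HW 3 at 9.27 plain CPM above FW 1 at 8.34, and the log2 fold change of HW over FW was -0.90 (SE 0.62, edgeR adjusted p = 1). HEL_000880 had the largest value towards HW, at 79.7 ± 18.7 plain CPM in HW and 58.6 ± 11.7 in FW (SD, n = 3 each), with a log2 fold change of 0.53 (SE 0.48, edgeR adjusted p = 1). HEL_004048 was at -0.23 (SE 0.23, edgeR adjusted p = 1) and HEL_010106 at 0.29 (SE 0.47, adjusted p = 1).

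In himera and in petiverana 0 of 14 members passed between wings, against 0.0201% of all IDs in each, and 0 had an unadjusted edgeR p under 0.05, against 0.984% in himera and 0.522% in petiverana. All 14 members entered this fit with the lativitta libraries, in which they had been chosen as high. With only the libraries of the taxon compared, 13 members entered in himera and 10 in petiverana. DESeq2 called 0 members in each, against 0.0618% and 0.0206% of all IDs. The largest wing value of the set was in petiverana, where HEL_010106 was at 0.390, 0.848 and 0.610 plain CPM in FW 1, 2 and 3 and at 0.318, 0.128 and 0.280 in HW 1, 2 and 3. Its log2 fold change of HW over FW was -1.27 (SE 0.66, edgeR adjusted p = 1), or -1.26 without the lativitta libraries, and with petiverana libraries alone it did not pass the filter. In plain CPM it was the 1 member whose wings did not overlap in petiverana in that direction, where 1.91% of the 9704 IDs showed it, from 13 reads in FW and 5 in HW. Over the taxa 0 of 14 members passed, against 0.0402% of all IDs, and 0 had an unadjusted edgeR p under 0.05, against 1.29%. DESeq2 called 0 members there, against 0.0926% of all IDs, and the edgeR log2 fold changes ran from -0.58 to 0.22. The test of whether the wing difference depends on taxon called 0 members and 0 IDs in all, with 0 members and 31 IDs (0.311%) at an unadjusted edgeR p under 0.05. DESeq2 called 0 members and 1 ID (0.0103%) in that test. The fits above did not pair FW with HW by library number, although numbers paired the wings in himera and petiverana. With number as a block within each taxon, edgeR called 0 of 14 members in himera and 0 of 14 in petiverana. The share of all IDs called with that block is not given here. In every wing test an unadjusted p under 0.05 was rarer over all IDs than that threshold gives with no difference at all. A count of 0 members at that threshold therefore says little, and these tests do not show that the wings are alike.

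**Figure D5:**
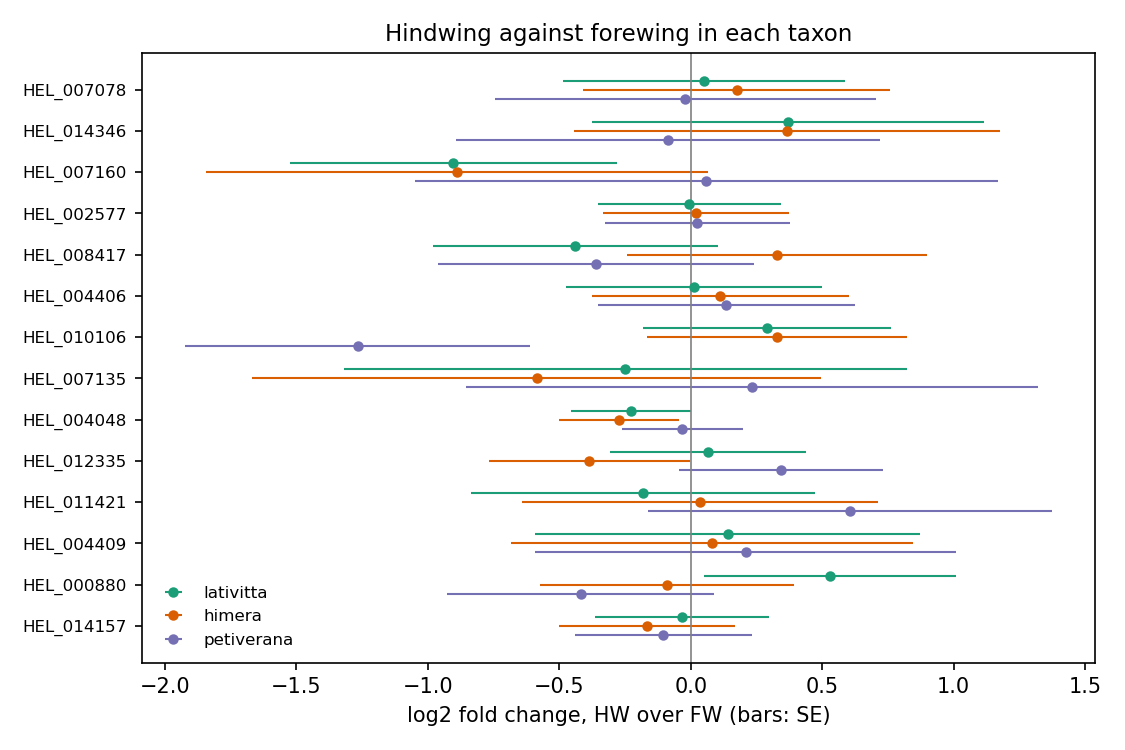
Log2 fold change of HW over FW for each ID in lativitta, himera and petiverana, with bars for 1 SE of the edgeR fit. Values lie between -1.27, for HEL_010106 in petiverana, and 0.61, for HEL_011421 in petiverana, and 0 passed the test.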

How the data were processed

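Each deposited file holds whole-number read counts of 1 library by gene ID, unscaled by the authors as far as the values show. The submitters' processing notes list TopHat, bedtools and DESeq2 but no version or role. For the counter, genome build, annotation and strand setting, the sources used here give nothing. The same ID list serves all taxa, so alignment success may differ between them, and its part in the results was not tested. The 5 summary rows, with 49.4% to 62.4% of reads, were left out of totals and tests. Counts of overlapping or near-identical genes are uncertain.

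Counts were tested in R 4.3.3 with edgeR 4.0.16 (filterByExpr, TMM factors, glmQLFit and glmQLFTest, 1 mean for each of the 6 groups, 18 libraries). The SE is the size of the log2 fold change divided by the square root of F. The filter kept 9957 IDs and all 14 members, and p was adjusted by Benjamini-Hochberg over the 9957, with a threshold of 0.05. DESeq2 1.42.0, other scalings, filters and library sets were alternatives. Steps were tested on simulated data with less dispersion than the common value of 0.361 fitted here, and with no number 1 libraries set apart. How the tests perform at the spread of these data was not simulated. Deviations of same-numbered FW and HW libraries correlated at 0.85 to 0.93 in himera and petiverana, so numbers pair the wings there. The main fit did not use this pairing, and only the replicate block did. The members, the comparisons and the rule for named IDs were chosen with earlier results of these data known. That rule took the first and last by ratio, the highest and lowest by level, the widest and narrowest spread and the leading IDs of each test. HEL_002577 and HEL_000880 in himera against petiverana, and HEL_007135, HEL_008417, HEL_012335 and HEL_004409, were singled out after their values were seen. Libraries of 1 group always differed by more than sampling noise (chi-square per degree of freedom 15.9 to 1222).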

Additional observations from a re-analysis of the deposited data

How the results depend on the processing

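The number of IDs meeting the rule was 14 in plain CPM, 4 with TMM factors, 4 with median-of-ratios factors (a scaling added after seeing the data), 7 with 5 added to CPM and 1 at a 4-fold limit. Leaving out 1 library gave 14 to 42, all including the 14. The counts above 1.5 times were 42 without lativitta HW 2, 29 without himera FW 3 and 24 without himera FW 2. Members called in himera against petiverana were 2, 1 and 3 in FW without the number 1 libraries of himera, of petiverana and of both, and 3, 3 and 5 in HW, from 0 and 1. In HW the count was 0 in the fit of only the groups compared and in the set of low ambiguous reads (added after seeing the data), where HEL_010106 did not pass the filter, 0 with only himera and petiverana libraries (added after seeing the data), where it did (1 in FW and 2 in HW when the himera number 1 libraries were left out too), and 0 to 2 when 1 library was left out, with 2 (HEL_010106 and HEL_002577) without himera HW 1. The share of all IDs called with 1 library left out is not given here, so those counts cannot be set against it. With the replicate block the count of members called was 2 in HW, and wing counts stayed at 0 in each taxon, over the taxa and for the dependence on taxon. They also stayed at 0 under the other alternatives run. For the wings the block joined libraries of a taxon by number. In lativitta, deviations of FW 2 and HW 2 correlated at -0.53, and those of FW 3 and HW 3 at -0.46. The blocked 0 therefore says little for lativitta and for tests that include it, and the share of all IDs is not given here. The cause of the changes in these counts was not tested.

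For HEL_007135, himera over petiverana turned from -0.09 in FW to 0.90 with the block, 0.12 without the himera number 1 libraries (0.093 with lativitta also left out), 2.36 without those of petiverana and 2.55 without both, and ranged from -0.62 to 2.36 when 1 library was left out, above 0 without himera FW 1 or petiverana FW 1. In HW it turned from -0.91 to 0.10 with the block, 1.84 without both petiverana number 1 libraries and 1.96 without both sets, and ranged from -1.45 to 1.84 when 1 library was left out, above 0 without petiverana HW 1. For HEL_008417 in HW, -0.01 turned to 0.028 without a filter, 0.15 with the block, 0.33 without the lativitta and himera number 1 libraries and 0.36, 1.09 and 1.43 without the number 1 libraries of himera, of petiverana and of both (edgeR adjusted p = 0.0230 in the last, with the lativitta libraries kept). It ranged from -0.52 to 1.09 when 1 library was left out, above 0 without himera HW 1, himera HW 3 or petiverana HW 1. Depth limits HEL_007160, HEL_010106 and HEL_007078, with 6, 18 and 26 reads in petiverana.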

Other observations

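In lativitta, FW 2 and HW 3 held the most HEL_014346 of their wing, at 94.2 and 144 plain CPM, and FW 3 and HW 2 the least, at 30.1 and 23.0. The same libraries held the most and the least HEL_004048 of their wing, at 313 and 287 against 204 and 138 plain CPM. Other members went otherwise: FW 3 was the highest FW library for HEL_000880, HEL_002577 and HEL_008417, at 72.0, 75.7 and 43.7 plain CPM. How many members and what share of all IDs had either order was not counted. Across all tested IDs the deviations of lativitta FW 2 correlated at 0.73 with those of HW 3 and at -0.53 with those of HW 2, and those of FW 3 at 0.63 with HW 2 and -0.46 with HW 3. These correlations are across IDs, which are not independent replicates, and the labels do not pair these libraries. Deviations of same-numbered himera and petiverana libraries correlated at -0.14 to -0.09.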
